A study of Mus musculus with 8 samples.

Results

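The glutathione S-transferase genes described here are 10 genes of the cytosolic transferase family, 6 of the mu class (Gstm1, Gstm2, Gstm3, Gstm4, Gstm5 and Gstm6), 2 of the alpha class (Gsta3 and Gsta4), 1 of the pi class (Gstp1) and 1 of the theta class (Gstt1). They were chosen by name, and all 10 were found among the 19505 genes of the array, each with 1 probe set. They were measured in whole colon of 8 mice that had developed acute graft-versus-host disease, the attack of donor T cells on a recipient's tissues. The recipients, wild-type BALB/c mice, had been lethally irradiated and transplanted on day 0 with T cells and bone marrow cells of C57BL/6 donors. Of these, 4 were given 1.2 mg/kg hBD-2 (human beta-defensin 2, an antimicrobial peptide of epithelia) by mouth from day 0 to day 7 and 4 were given PBS by the same route, and the colon was taken on day 7. Irradiation, allogeneic transplant and disease were thus common to both groups, and no array of a mouse without the disease was analysed here. The labels give neither the age nor the sex of the mice.

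Glutathione S-transferases couple glutathione, a small cysteine-containing peptide, to electrophilic compounds such as plant toxins, drug metabolites and the aldehydes left by lipid peroxidation. The conjugates are pumped out of the cell and trimmed by peptidases at its surface. In the intestine the enzymes are made largely by the epithelium, where dietary compounds and the transcription factors Nrf2 and Ahr can induce many of them, through the antioxidant response element and the xenobiotic response element of DNA.

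The values are log2 expression values normalised by RMA, a method that aligns the distributions of all arrays, and differences are hBD-2 minus PBS in log2 units. The 8 array medians lay between 6.77 and 6.82, and precision is limited by there being 4 arrays a group. All 12 epithelial markers examined, among them Epcam and Cdh1, lay above the median level of all genes while 1 of 7 liver and pancreas markers did. Mice 1 and 3 of the hBD-2 group differed most from the rest: on the main axis of variation over all genes (the first principal component) they lay at 25.2 and 25.4, against -14.9 to -2.45 for the remaining 6. In these 2 mice a list of posterior colon genes (9 of 10 measured) averaged 1.14 and 0.88 log2 units above each gene's mean over the 8 arrays. On that list hBD-2 mice 2 and 4 stood at -0.35 and -0.36 and the PBS arrays at -0.47 to -0.16. Hoxb13, Hoxd13, Scnn1g, Scnn1b and Insl5 were highest in hBD-2 mice 1 and 3, but Hoxd10, Hoxd11, Hoxd12 and Hoxa13 were not. Hoxd10 was at 4.69 and 4.63 there, against 5.93 and 5.55 in hBD-2 mice 2 and 4. Results are also given without the pair of hBD-2 mice 1 and 3, which leaves hBD-2 mice 2 and 4 against the 4 PBS mice. In bulk tissue, fewer cells of a type and less RNA per cell cannot be told apart.

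Of the 10 genes, 9 had a higher mean in hBD-2 mice and 1, Gstt1, a lower one, where 53.5% of all genes had a higher mean. None of the 10 passed an adjusted p of 0.05 (limma with Benjamini-Hochberg adjustment over all genes), where 0% of all genes passed as higher and 0.041% as lower. The largest difference was that of Gstm6, 1.53-fold higher in hBD-2 mice. At an unadjusted p under 0.05, Gstm6, Gsta3 and Gstm2 were higher and Gstt1 was lower, that is 3 and 1 of the 10 genes, against 5.85% and 5.98% of all genes. The groups did not overlap in 2 genes, Gstm6 and Gsta3, both higher in hBD-2 mice, as were 2.8% of all genes. No gene of the 10 was lower without overlap, against 3.6% of all genes. The median difference was 0.21 over the 10 genes and 0.012 over all genes tested. Without hBD-2 mice 1 and 3 these medians were 0.084 and 0.020, and 7 of the 10 genes were above 0.

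**Figure D1:**
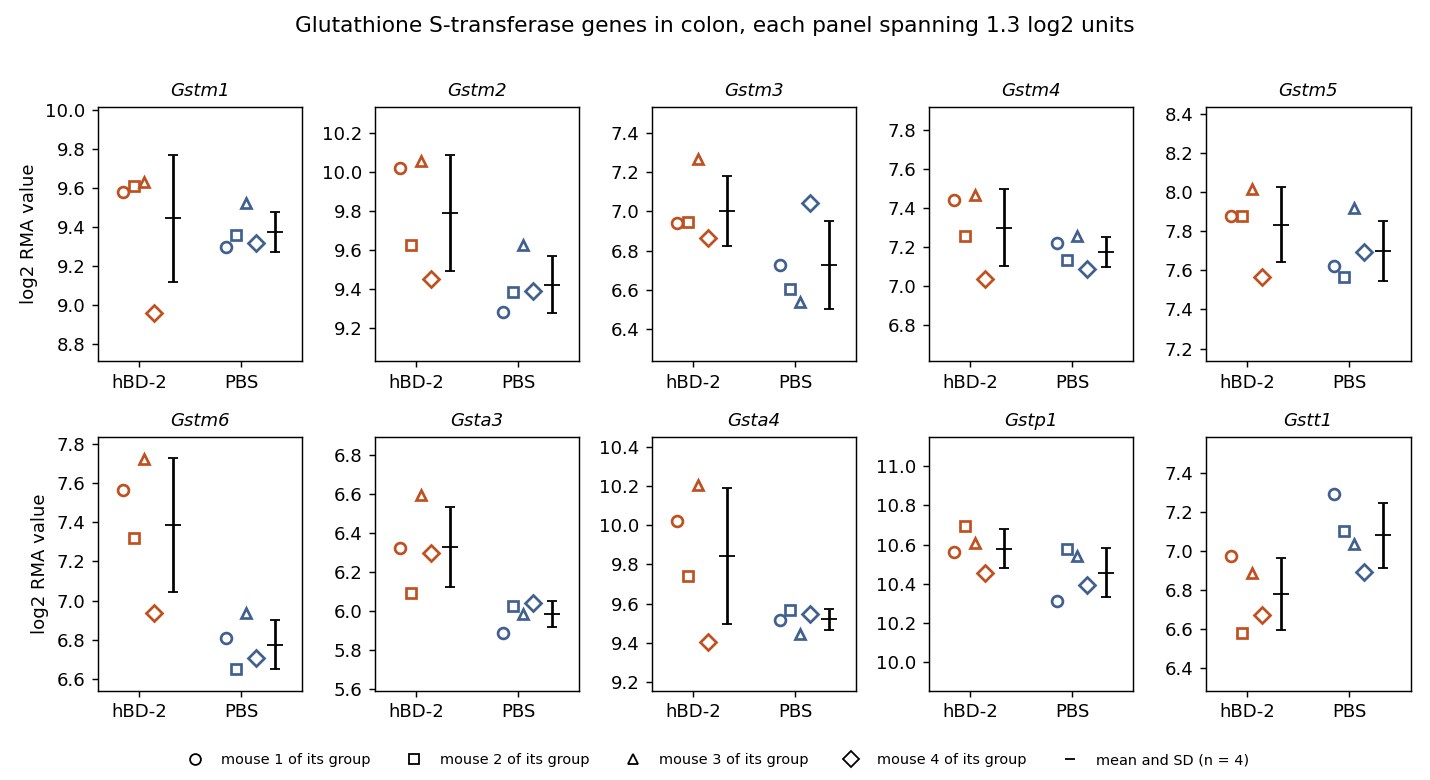
Log2 RMA values of the 10 transferase genes in each mouse, with the 4 hBD-2 mice on the left and the 4 PBS mice on the right of each panel; symbols give the mouse's number within its group, and the bar its group's mean and SD (n = 4). Gstm6 lay at 6.94 to 7.72 in hBD-2 mice and at 6.65 to 6.93 in PBS mice, while the hBD-2 mouse 4 was the lowest of its group in 8 of the 10 genes.

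The mu-class genes lie in a cluster on chromosome 3, in the order Gstm5, Gstm7, Gstm6, Gstm3, Gstm2, Gstm1 and Gstm4. Their coding sequences resemble each other, and whether probes of the array are shared between them was not tested. Along that order the differences were 0.13, 0.31, 0.61, 0.28, 0.37, 0.07 and 0.12 log2 units, so that all 7 were above 0 and the largest was in Gstm6. Gstm7, named here for its place in the cluster, had an unadjusted p of 0.108 in limma. In the setting without hBD-2 mice 1 and 3, Gstm7 was at 0.060, and Gstm1 and Gstm4 were below 0.

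Gstm6 was measured at 7.56, 7.32, 7.72 and 6.94 log2 units in hBD-2 mice 1 to 4, against 6.81, 6.65, 6.93 and 6.70 in PBS mice 1 to 4. The groups did not overlap, but the lowest hBD-2 mouse (number 4) and the highest PBS mouse (number 3) were only 0.0033 log2 units apart. The difference was 0.61 (SE 0.15, 95% interval 0.27 to 0.95, adjusted p = 0.179 by limma). The exact permutation test, two-sided, gave Gstm6 and Gsta3 an unadjusted p of 0.0286, the smallest that 4 against 4 mice allow. Groups without overlap always give that p, so it adds nothing to the lack of overlap. In the other members the p of that test ran from 0.0571 (Gstt1) to 0.8 (Gstm1). Without hBD-2 mice 1 and 3, Gstm6 stood at 0.35 (SE 0.13, adjusted p = 0.317 by limma), and without hBD-2 4 it stood at 0.76 (adjusted p = 0.0616 by limma).

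The promoters of the genes with the largest difference in either direction, Gstm6 and Gstt1, are shown with those of the 2 genes, Gsta3 and Gstm5, that hold the core of the antioxidant response element, TGACNNNGC. Each runs 5′ to 3′ on the gene's strand over the 250 bases before the start site in RefSeq's annotation of GRCm38.p6, which had windows for 9 of the 10 genes, all but Gsta4. Capitals mark matches, on either strand, to TGACNNNGC or to the core of the xenobiotic response element, GCGTG. No other form of either core was searched, so a gene without a match may hold one. The windows are chr3:107953467-107953716 (minus strand) for Gstm6, chr10:75797732-75797981 (minus strand) for Gstt1, chr1:21240335-21240584 (plus strand) for Gsta3 and chr3:107895604-107895853 (plus strand) for Gstm5. Gstm6 has 3 annotated starts, and the one farthest upstream is shown.
Gstm6: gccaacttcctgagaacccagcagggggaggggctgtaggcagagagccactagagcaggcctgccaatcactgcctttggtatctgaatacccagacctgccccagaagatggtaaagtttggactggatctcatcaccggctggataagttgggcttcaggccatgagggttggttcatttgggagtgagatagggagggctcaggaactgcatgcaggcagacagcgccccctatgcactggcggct
Gstt1: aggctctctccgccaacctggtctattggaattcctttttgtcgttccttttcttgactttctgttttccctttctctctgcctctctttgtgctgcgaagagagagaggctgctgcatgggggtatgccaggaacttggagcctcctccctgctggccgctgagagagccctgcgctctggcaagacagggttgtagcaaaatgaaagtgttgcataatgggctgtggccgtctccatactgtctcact
Gsta3: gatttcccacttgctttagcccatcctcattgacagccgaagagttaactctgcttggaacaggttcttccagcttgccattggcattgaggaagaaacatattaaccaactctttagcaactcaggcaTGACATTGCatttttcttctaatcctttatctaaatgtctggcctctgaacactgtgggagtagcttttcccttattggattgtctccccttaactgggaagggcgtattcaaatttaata
Gstm5: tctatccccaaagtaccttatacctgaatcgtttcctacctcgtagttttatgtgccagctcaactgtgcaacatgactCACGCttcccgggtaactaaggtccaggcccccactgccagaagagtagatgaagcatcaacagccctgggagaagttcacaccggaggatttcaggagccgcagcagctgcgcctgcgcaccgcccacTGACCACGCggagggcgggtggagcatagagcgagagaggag
TGACNNNGC was thus found in 2 of the 9 genes, against 11.5% of the 27025 genes with a window. GCGTG was found in 3 of the 9, Gstm1, Gstm5 and Gstp1, against 30.9% of all genes, and in Gstm5 1 of its 2 matches overlaps the antioxidant element. Neither was found before any of the 3 starts of Gstm6, or in the window of Gstt1. A match describes the letters and shows no binding.

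Gstm2, whose human counterpart conjugates quinones of catecholamines, was measured at 10.02, 9.62, 10.06 and 9.45 in hBD-2 mice 1 to 4, against 9.28, 9.38, 9.63 and 9.39 in PBS mice 1 to 4. The 2 highest values were those of hBD-2 mice 1 and 3, and the other hBD-2 mice lay within the PBS range. The difference was 0.37 (SE 0.14, adjusted p = 0.352 by limma), and it was 0.12 (adjusted p = 0.732 by limma) without that pair.

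Gstm1, an abundant mu-class enzyme of the liver, was measured at 9.58, 9.61, 9.63 and 8.96 in hBD-2 mice, against 9.30, 9.36, 9.52 and 9.32 in PBS mice. In this gene 3 hBD-2 mice were above every PBS mouse and hBD-2 4 was below every PBS mouse. The mean difference was 0.07 (95% interval -0.25 to 0.39), and without hBD-2 mice 1 and 3 it stood at -0.089.

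Gstm4 and Gstm5 had mean differences close to their standard errors. Gstm4 was at 7.44, 7.26, 7.47 and 7.04 in hBD-2 mice, against 7.22, 7.14, 7.26 and 7.09 in PBS mice, a difference of 0.12 (SE 0.10). Gstm5 was at 7.88, 7.88, 8.02 and 7.56 in hBD-2 mice, against 7.62, 7.57, 7.92 and 7.70 in PBS mice, a difference of 0.13 (SE 0.11). In Gstm4 the other 3 hBD-2 mice were above every PBS mouse, in Gstm5 only hBD-2 3 was, and in both genes hBD-2 4 was the lowest of the 8 arrays. Some of these orders were near ties. Gstm4 was at 7.2596 in hBD-2 2 and 7.2565 in PBS 3, and Gstm5 at 7.5639 in hBD-2 4 and 7.5654 in PBS 2. Without hBD-2 mice 1 and 3, Gstm4 was at -0.028 and Gstm5 at 0.020.

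Gstm3 was measured at 6.94, 6.94, 7.27 and 6.86 in hBD-2 mice, against 6.73, 6.60, 6.54 and 7.04 in PBS mice. PBS 4 alone reached into the hBD-2 range. The difference was 0.28 (SE 0.13, adjusted p = 0.427 by limma), and it was 0.38 without PBS 4 and 0.18 (SE 0.14) without hBD-2 mice 1 and 3.

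Gsta3, whose mouse enzyme is known for inactivating the epoxide of aflatoxin, was measured at 6.32, 6.09, 6.60 and 6.30 in hBD-2 mice, against 5.89, 6.03, 5.99 and 6.04 in PBS mice. All 4 hBD-2 mice were above all 4 PBS mice, by at least 0.052 log2 units. The difference was 0.34 (SE 0.10, 95% interval 0.11 to 0.57, adjusted p = 0.243 by limma). It was 0.21 (SE 0.10) without hBD-2 mice 1 and 3. Unlike the 6 mu-class genes, Gsta3 was lowest in hBD-2 2 among the hBD-2 mice, not in hBD-2 4.

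Gsta4, which conjugates hydroxynonenal, an aldehyde of lipid peroxidation, was measured at 10.02, 9.74, 10.20 and 9.40 in hBD-2 mice, against 9.52, 9.57, 9.44 and 9.55 in PBS mice. The PBS mice lay close together (SD 0.055, n = 4), while hBD-2 mice spread widely (SD 0.35, n = 4), with 3 above every PBS mouse and hBD-2 4 below every one. The difference was 0.32 (SE 0.15, adjusted p = 0.43 by limma), and 0.052 without hBD-2 mice 1 and 3.

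Gstp1, the pi-class enzyme, was measured at 10.56, 10.69, 10.61 and 10.45 in hBD-2 mice, against 10.31, 10.58, 10.54 and 10.39 in PBS mice. The groups overlapped, and the difference was 0.12 (SE 0.087, 95% interval -0.069 to 0.32). It stood at 0.12 without hBD-2 mice 1 and 3 as well, and without PBS 1 it was 0.075.

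Gstt1, a theta-class enzyme that acts on small halogenated compounds, was the only one of the 10 genes with a lower mean in hBD-2 mice. It was measured at 6.97, 6.58, 6.89 and 6.67 in hBD-2 mice, against 7.29, 7.10, 7.04 and 6.89 in PBS mice. The groups overlapped through hBD-2 1, which lay above PBS 4. The difference was -0.30 (SE 0.11, 95% interval -0.55 to -0.050, adjusted p = 0.34 by limma). In contrast to Gstm6, Gstm2 and the alpha-class genes it was farther from 0 without hBD-2 mice 1 and 3, at -0.45 (SE 0.12, adjusted p = 0.202 by limma). Whether Gstt1 differs from the other genes in its response was not tested. Its relatives Gstt2 and Gstt3, named for their class, had differences of 0.21 and 0.33 (unadjusted p of 0.0779 and 0.0773 in limma), and of 0.14 and 0.10 without that pair.

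**Figure D2:**
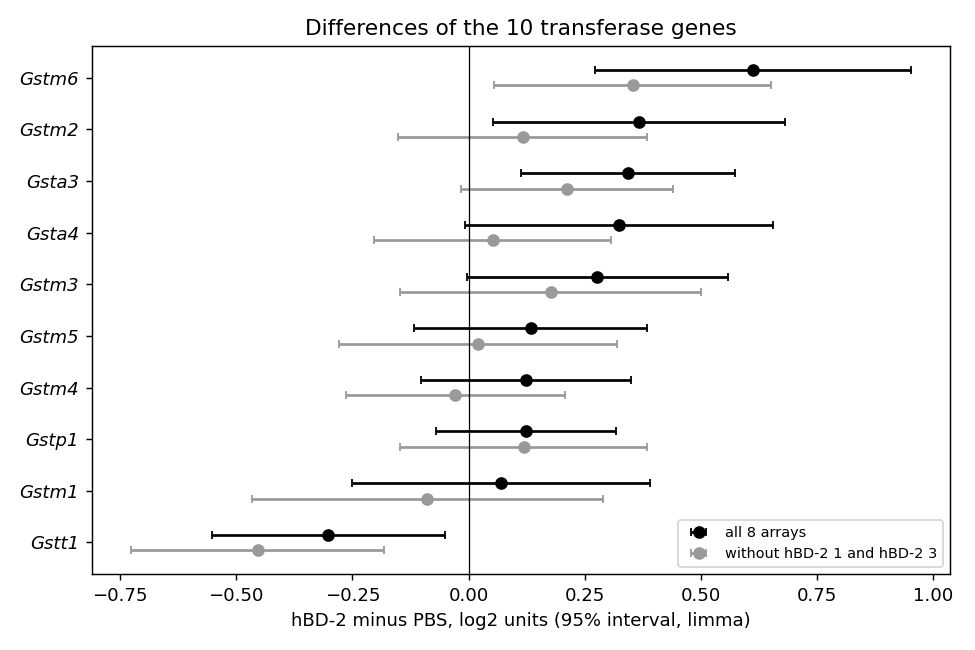
Differences between hBD-2 and PBS mice, in log2 units with 95% intervals from limma, for the 10 genes with all 8 arrays (black) and without hBD-2 mice 1 and 3 (grey). Gstm6 stood at 0.61 and 0.35 in the 2 settings, Gstm1 and Gstm4 changed sign at values whose intervals span 0, and Gstt1 stood at -0.30 and -0.45.

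In most of the 10 genes hBD-2 3 was the highest and hBD-2 4 the lowest of the hBD-2 mice, while the order of mice 1 and 2 varied. hBD-2 3 held the highest value of the 8 arrays in 8 of the 10 genes, whereas it did so in 9.93% of all genes, and hBD-2 4 was the lowest of the hBD-2 mice in 8 of the 10, against 26.8% of all genes. Gstp1 was highest in hBD-2 2 and Gstt1 in PBS 1, and Gsta3 and Gstt1 were lowest, among hBD-2 mice, in hBD-2 2. hBD-2 4 lay below every PBS mouse in 5 of the 10 genes, namely Gsta4, Gstm1, Gstm4, Gstm5 and Gstt1, against 24.0% of all genes. In Gstm5 it nearly tied with PBS 2. The SD was larger among hBD-2 than among PBS mice in 8 of the 10 genes, as in 56.6% of all genes. With hBD-2 4 left out, 8 of the 10 genes were higher at an unadjusted p under 0.05 (6.21% of all genes in that setting). As hBD-2 4 was the lowest of its group in most of the 10, leaving it out was bound to raise their differences. The share of all genes is thus no like comparison. With any other single array left out, 2 or 3 of the 10 were higher at that p (3.93% to 7.43% of all genes). With hBD-2 mice 1 and 3 left out only Gstm6 was (7.35% of all genes). These mice were the 2 highest arrays in 5 of the 10 genes, so leaving them out was bound to lower those differences. This share is no like comparison either. None passed the adjusted threshold in any of these settings.

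Averaged over the 10 genes relative to each gene's mean, hBD-2 mice 1 to 4 stood at 0.21, 0.049, 0.32 and -0.16, and PBS mice 1 to 4 at -0.13, -0.13, -0.045 and -0.11. The mean of the posterior colon list, though not each of its genes, was highest in the arrays of hBD-2 mice 1 and 3, at the values given above. Goblet cell markers (8 of 8 measured) stood at 0.35, 0.046, 0.17 and -0.23 in hBD-2 mice 1 to 4 and between -0.23 and 0.064 in PBS mice. On this mean hBD-2 4 was again the lowest hBD-2 mouse. Spdef and Clca1 were exceptions, lowest among hBD-2 mice in hBD-2 3 and hBD-2 2. The 12 epithelial markers spanned -0.064 to 0.061 in hBD-2 mice and -0.029 to 0.055 in PBS mice. The 10 colonocyte markers were at 0.38 in hBD-2 2, at -0.043 to 0.080 in the other hBD-2 mice and at -0.33 to 0.082 in PBS mice. Much of the 0.38 came from Cyp2c55, at 9.12 in hBD-2 2 against a mean of 6.24 over the 8 arrays. It was at 7.20 in hBD-2 4, at 4.80 and 4.89 in hBD-2 mice 1 and 3, and at 4.75 to 6.65 in PBS mice. Car4 and Slc26a3, higher at an unadjusted p under 0.05 in limma as were 5.85% of all genes, peaked in hBD-2 mice 1 and 3. Among hBD-2 mice both were lowest in hBD-2 4. Car1 went the other way, at 12.11 and 12.20 in mice 1 and 3 against 12.84 and 12.71 in mice 2 and 4. Macrophage markers were lowest in hBD-2 mice 1 and 3, at -0.36 and -0.44, as were fibroblast markers, at -0.41 and -0.43. The part of colon position and of cell composition in the transferase values was not tested.

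**Figure D3:**
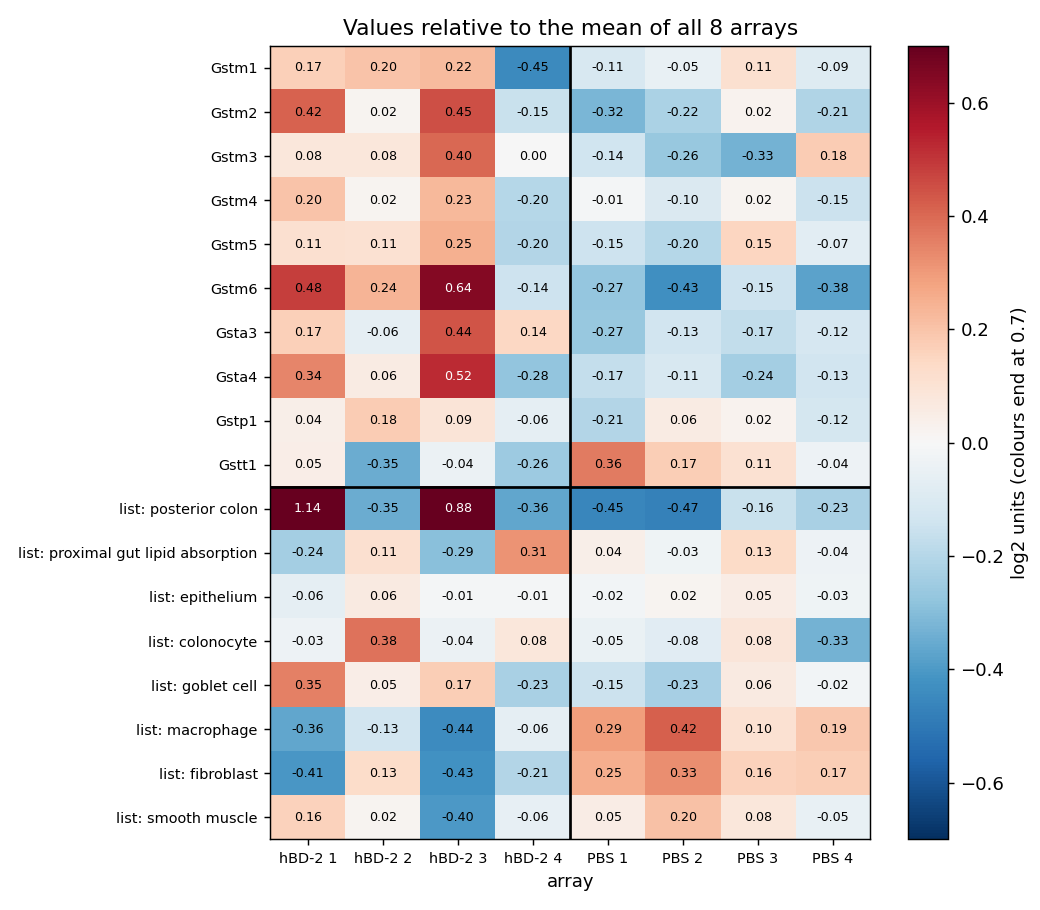
Each cell gives a gene's log2 value, or a marker list's mean, relative to its mean over the 8 arrays, with hBD-2 mice on the left and PBS mice on the right; colours end at 0.7. hBD-2 3 is highest in 8 of the 10 transferases, and hBD-2 mice 1 and 3 are the 2 highest arrays in 5 of them; these mice stand at 1.14 and 0.88 in the posterior colon list.

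Gstm6 was the only one of the 10 genes to span over 1 log2 unit across the arrays. The 3 genes with values most like it, by the root mean square difference of mean-centred values over the 8 arrays, were Pla2g3, a secreted phospholipase, at 0.093 log2 units, Rnf186, a ubiquitin ligase, at 0.098, and Pdk1, a kinase that restrains pyruvate dehydrogenase, at 0.10. Their own differences between hBD-2 and PBS mice were 0.57, 0.56 and 0.55. As these genes were chosen for values close to those of Gstm6, differences near its own follow from the choice.

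The genes around the transferases were followed through 5 lists, in none of which a member passed over all genes. Their counts at an unadjusted p under 0.05 stand against 5.85% of all genes higher and 5.98% lower, and without hBD-2 mice 1 and 3 against 7.35% and 5.48%. Among 19 other transferases and related enzymes measured of 21 listed, 0 had an unadjusted p under 0.05 in limma, 13 had a higher mean in hBD-2 mice, and the median difference was 0.092, or 0.00053 without hBD-2 mice 1 and 3. In that setting 1 of the 19 was higher, the microsomal enzyme Mgst2, named after its values were seen, at 0.70 (unadjusted p = 0.0104 by limma), against 0.40 with all arrays. Gsta2, a further alpha-class enzyme, had the lowest p, with a difference of 0.47 (SE 0.22) that was 0.13 without hBD-2 mice 1 and 3. Ptges, the inducible prostaglandin E synthase of the microsomal family, was at -0.26 (SE 0.13), and at -0.092 without that pair.

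Of the 21 genes for glutathione synthesis and recycling, all measured, 3 were lower and 0 higher at an unadjusted p under 0.05, with a median difference of -0.0087. None of the 21 (0 lower, 0 higher) was under that p in limma without hBD-2 mice 1 and 3. Slc7a11, the cystine importer that supplies cysteine for glutathione, was measured at 8.71, 8.97, 8.36 and 9.21 in hBD-2 mice, against 9.80, 9.04, 9.23 and 9.53 in PBS mice. The groups overlapped, and the difference was -0.59 (SE 0.20, adjusted p = 0.291 by limma), or -0.31 without hBD-2 mice 1 and 3. Its partner chain Slc3a2 was at -0.24 (SE 0.093) with no overlap, and at -0.15 without that pair. Ggct, which breaks down gamma-glutamyl peptides, was at -0.26 (SE 0.098), or -0.25 without that pair. The rate-limiting synthesis subunits Gclc and Gclm, named here for their role, were at -0.0087 (SE 0.072) and 0.072 (SE 0.078).

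Of 7 glutathione peroxidases measured, 2 were lower at an unadjusted p under 0.05, and the median was -0.038; both were also lower at that p without hBD-2 mice 1 and 3. Gpx3, the secreted peroxidase, was measured at 10.60, 10.96, 10.42 and 10.33 in hBD-2 mice, against 11.13, 11.33, 10.96 and 11.20 in PBS mice. All hBD-2 values were below all PBS values, and the difference was -0.58 (SE 0.14, adjusted p = 0.158 by limma). Gpx8, a peroxidase of the endoplasmic reticulum, was at -0.39 (SE 0.10), also with no overlap.

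Of 14 genes for export and processing of conjugates, 3 were lower and 2 higher at an unadjusted p under 0.05, with a median of -0.031. The counts were 3 and 0, and the median 0.036, without hBD-2 mice 1 and 3. Anpep, an aminopeptidase that also stands on myeloid cells, was measured at 8.12, 8.23, 8.14 and 8.39 in hBD-2 mice, against 8.69, 8.85, 8.85 and 8.64 in PBS mice. The groups did not overlap, and the difference was -0.54 (SE 0.088, adjusted p = 0.069 by limma), or -0.44 without hBD-2 mice 1 and 3. Dpep2, a membrane dipeptidase of leukocytes, was at -0.54 (SE 0.14) and Ggt5, a gamma-glutamyl transferase, at -0.30 (SE 0.13). Without that pair they were at -0.50 and -0.41. Acy1, an aminoacylase, was at 0.21 (SE 0.081), and Abcg2, an efflux pump of the apical membrane, at 0.33 (SE 0.14). Without hBD-2 mice 1 and 3 they were at 0.23 and 0.15.

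Of 19 regulators and co-induced genes, 2 were lower and 0 higher at an unadjusted p under 0.05, against 5.98% and 5.85% of all genes, with a median of -0.014. Whether 2 of 19 differs from that share was not tested. Without hBD-2 mice 1 and 3 the counts were again 2 and 0, against 5.48% and 7.35% of all genes, and the median was -0.024. The receptor Ahr was at 7.24, 7.11, 7.24 and 6.96 in hBD-2 mice, against 7.43, 7.42, 7.41 and 7.32 in PBS mice, without overlap. Its difference was -0.26 (SE 0.082, adjusted p = 0.26 by limma), or -0.36 without hBD-2 mice 1 and 3. Tiparp, a target and repressor of Ahr, was at -0.28 (SE 0.092), or -0.35 without that pair. Nfe2l2, which encodes Nrf2, and its target Nqo1, named here for their roles, were at -0.014 (95% interval -0.25 to 0.22) and 0.099 (95% interval -0.14 to 0.34).

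Markers of macrophages, fibroblasts, endothelium and T cells lay in the same direction as these lower genes, with a lower mean in hBD-2 mice in every one of the 9, 8, 7 and 7 measured. At an unadjusted p under 0.05 in limma, 8 of 9 macrophage, 6 of 8 fibroblast, 5 of 7 endothelial and 2 of 7 T cell markers were lower, against 5.98% of all genes. Without hBD-2 mice 1 and 3 these counts were 5, 5, 4 and 5, against 5.48% of all genes. The macrophage markers averaged -0.44 to -0.063 in hBD-2 mice and 0.10 to 0.42 in PBS mice relative to each gene's mean, and their median difference was -0.55, or -0.30 without that pair. The fibroblast markers averaged -0.43 to 0.13 in hBD-2 mice and 0.16 to 0.33 in PBS mice, with a median difference of -0.48, or -0.26 without that pair. Endothelial markers averaged -0.37 to 0.078 in hBD-2 mice and 0.018 to 0.23 in PBS mice, and T cell markers -0.44 to 0.099 in hBD-2 mice and -0.12 to 0.26 in PBS mice. Median differences were -0.36 for the endothelial and -0.25 for the T cell list, and -0.30 and -0.43 without that pair. Their part in the values of Gpx3, Gpx8, Anpep, Dpep2 and Ahr was not tested.

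**Figure D4:**
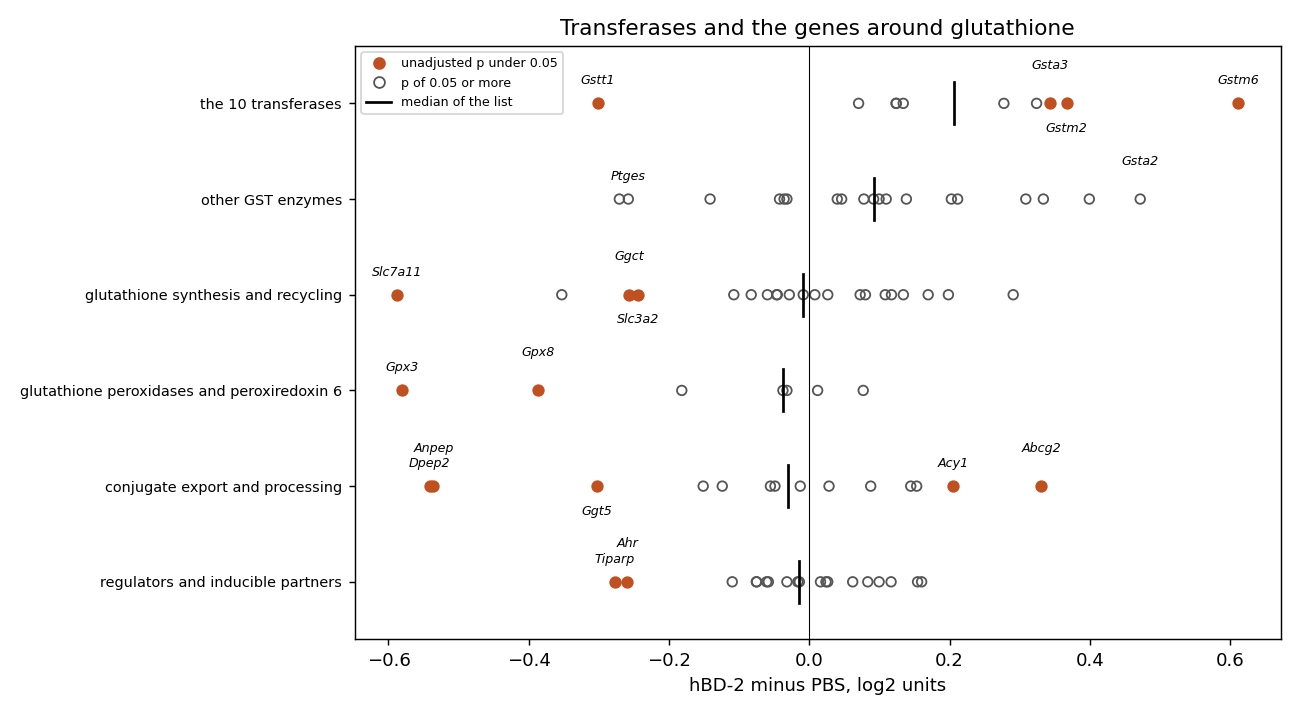
Differences between hBD-2 and PBS mice in log2 units for each gene of the 10 transferases and of the 5 lists around glutathione; filled points have an unadjusted p under 0.05 in limma and bars mark each list's median. The transferases have the highest median, 0.21, and the medians of the 5 lists lie between -0.038 and 0.092.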

How the data were processed

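RNA of whole colon from 8 mice, 1 array each, was labelled with the manufacturer's kit for small RNA amounts, per the labels' protocols. The deposited table holds log2 values for 22203 probe sets, made by the authors with RMA in the R package oligo, per the submitters' processing notes, which give no version. RMA removes any overall shift between mice. The platform annotation named 19572 probe sets, all matched to RefSeq's GRCm38.p6 gene table by gene ID, which left 19505 genes after choosing, for genes with several, the probe set of highest average. No dim probe set was removed.

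Groups came from the sample titles. Differences were tested, two-sided, by limma's moderated test (version 3.58.1, R 4.3.3; lmFit, then eBayes), adjusted over all genes by Benjamini-Hochberg at 0.05. The pipeline was tested on simulated data with independent noise in each gene, so variation shared by genes of an array was not covered. Recovery was required there only for differences of 2 log2 units, larger than those of the members. Named were the 10 members, in each list the genes at an unadjusted p under 0.05 (otherwise the 2 with the lowest p), and the 3 genes most like each member spanning over 1 log2 unit, with exceptions stated. The members, the lists and the arrays to leave out were chosen with earlier results of these data known. Figures were drawn with matplotlib 3.10.9.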

Additional observations from a re-analysis of the deposited data

Results flagged for a closer look

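In Gstm1, hBD-2 4 was at 8.96 log2 units, far from the other hBD-2 mice, which lay between 9.58 and 9.63. It was the only such case among the 20 groups of 4 mice examined for the 10 genes, where chance flags about 1 group in 20.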

How the results depend on the processing

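No transferase passed the adjusted threshold in any of 18 alternative settings, in which the adjusted p of Gstm6 ran from 0.0616 to 0.422 (limma) and its difference from 0.35 to 0.76. Gsta3 was not among the genes tested once the dimmest 50% of probe sets were dropped. Gstm1 and Gstm4 were below 0, at -0.089 and -0.028, without hBD-2 mice 1 and 3, and the other 8 genes kept their direction in every setting. The transferases higher at an unadjusted p under 0.05, 3 with all arrays, numbered 5 with array weights, 1 without hBD-2 mice 1 and 3, and 2 to 8 with single arrays left out, the 8 without hBD-2 4. Of all genes, 5.85% were higher at that p with all arrays, 7.51% with array weights and 7.35% without that pair. With single arrays left out, 3.93% to 7.43% were. The 1 lower gene, Gstt1, missed that threshold without PBS 1, hBD-2 2 or hBD-2 4 (range 0 to 1). Of all genes, 4.57% to 6.95% were lower with single arrays left out. Over all genes, limma passed 0 as higher and 8 as lower. The counts were 1 and 15 after dropping the dimmest 25% of probe sets, 1 and 45 after dropping 50%, 6 and 85 with an intensity trend and robust prior, 9 and 59 with array weights and 12 and 69 at an adjusted p of 0.1. With quantile normalization repeated 4 passed as lower, with all probe sets 5, without hBD-2 mice 1 and 3 0, and with single arrays left out 0 to 1 passed as higher and 0 to 10 as lower. The replicate number as a block left 0 lower calls. Mice of the same number correlated at -0.15 to 0.24 in their deviations, and 3 of 8 correlated best with their own number. With 4 mice a group these values cannot decide whether the numbers pair the mice. RMA values do not show how far a signal lies above background, so genes with low values such as Gsta3 cannot be judged on it.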
